A study of Homo sapiens with 12 samples.

Results

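The genes described here are the protein-coding genes on the short arm of human chromosome 3 (3p) that start before the gene HTD2, at about 58.3 Mb of GRCh38, and reached a mean of at least 50 counts over 12 RNA-seq libraries. TGFBR2 and the genes with symbols starting RPL or RPS were left out. The rule gave 278 genes, of 11854 protein-coding genes in the genome at the same count minimum. All libraries came from SCC-15, an established human oral squamous cell carcinoma line. The 4 groups were cells with the control hairpin shRNA-NC (NC below) and cells with shRNA1, shRNA2 or shRNA3, 3 different short hairpin RNAs against FMOD, the gene of the matrix proteoglycan fibromodulin. Each group had 3 libraries, all harvested after 48 hours of treatment, and the study asked which genes change on FMOD depletion. The labels do not say how the hairpins were delivered, whether the cells of a group are 1 clone, or whether the libraries of a group came from separate cultures, so p-values measure only the spread between these libraries.

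The short arm of chromosome 3 is one of the regions most often lost in squamous carcinomas of the mouth, lung and cervix. It carries many tumour suppressor genes, among them VHL, a ubiquitin ligase subunit that marks hypoxia-inducible factors for destruction, the chromatin genes SETD2, BAP1 and PBRM1, and the Ras-association gene RASSF1. A gain or loss of a chromosome arm commonly moves the RNA of many of its genes in the same direction. RNA-seq alone does not measure DNA copy number.

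The members were chosen by position and mean count, with their changes of hairpin groups against NC already known, so every value against NC below is a description and carries no p-value. The 3 comparisons also share the same NC libraries. The comparisons between hairpins use no NC library in the difference. They are not fully independent of the choice, because a gene high with 1 hairpin can meet the count minimum through it. Changes against NC are given as the mean log2(CPM + 1) of a hairpin group minus that of NC, where CPM is the usual depth-scaled count after TMM scaling, a correction for library composition. Of the 442 protein-coding genes below the limit, 158 were under 50 mean counts, 26 of them at 0 in all libraries. All 278 members passed the filter on low counts used for testing.

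Library totals ran from 17286934 to 19567192 counts. FMOD itself had 2, 2 and 3 counts in the NC libraries and 0 in each of the 9 hairpin libraries, where a count of 0 allows up to 3, so its depletion could hardly be measured at this depth. Libraries 1 and 2 of shRNA3 stood apart from library 3, with TMM factors of 0.771 and 0.795 against 0.979 to 1.11 elsewhere. Some results that rest on them are given both ways. Most shRNA3 medians of windows and gene lists are given with all 3 libraries only. All 7 squamous markers were above 1 CPM in every group and all 4 leukocyte markers were below it. The squamous markers summed to 1850 to 2050 CPM in NC, 1390 to 1790 with shRNA1, 1470 to 1530 with shRNA2 and 1280 to 2190 with shRNA3, but single markers went both ways. KRT5 was at 965 to 1050 CPM in NC and 16.5 to 90.3 with the hairpins, and TP63 was also below NC in all 9 hairpin libraries, while KRT14 (6.51 to 9.59 CPM in NC, 24.2 to 230 with the hairpins), KRT6A and KRT17 were above it in all 9. The simple-epithelial list (KRT8, KRT18, KRT19, EPCAM, CDH1) summed to between 1900 and 2010 CPM in NC and to between 3580 and 5460 CPM with the hairpins. In that list KRT19 was at 0.591 to 1.01 CPM in NC and at 247 to 984 with the hairpins. CDH1 went the other way, at 310 to 336 CPM in NC and 35.4 to 79.4 with the hairpins. EPCAM was below NC with shRNA1 only. Of 3 endothelial markers, CDH5 and VWF were below NC and PECAM1 above it in all 9 hairpin libraries, with sums of 17.6 to 23.1 CPM in NC, 3.88 to 5.88 with shRNA1, 6.87 to 8.46 with shRNA2 and 8.68 to 13.3 with shRNA3. The 6 fibroblast markers summed to between 56.7 and 59.6 CPM in NC, 15.5 and 21.1 with shRNA1, 44.2 and 48.2 with shRNA2, and 32.6 and 86.6 with shRNA3. COL1A1, most of each sum, was above NC in 5 hairpin libraries and below it in 4. PDGFRB (9.36 to 11.7 CPM in NC, at most 1.29 with the hairpins), COL1A2 and LUM were below NC in all 9. DCN was at 0 in all NC libraries, and COL3A1 was at most 0.155 CPM in any library. These marker levels moved with the hairpin groups, and their part in the short-arm values was not tested. A difference between the cells that received NC and those that received a hairpin cannot be told apart from an effect of the hairpins. In bulk RNA, more cells with a gene switched on and more RNA per cell cannot be told apart either.

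The short-arm genes as a set lay about 2-fold above NC with each hairpin. The median change was 1.04 with shRNA1 (quartiles 0.49 and 1.63), 1.08 with shRNA2 (0.53 and 1.59) and 0.90 with shRNA3 (0.35 and 1.43). As folds these medians are 2.06, 2.11 and 1.87. By library, measured from the NC mean, the median member stood at 0.01, 0.02 and −0.03 in NC. It stood at 1.07, 1.04 and 1.07 in the shRNA1 libraries, at 1.06, 1.08 and 1.10 in the shRNA2 libraries and at 0.86, 0.78 and 1.06 in the shRNA3 libraries. Each hairpin library lay above each NC library, and the lowest 2 were shRNA3 libraries 1 and 2. Without these 2 libraries the shRNA3 median was 1.06.

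**Figure D1:**
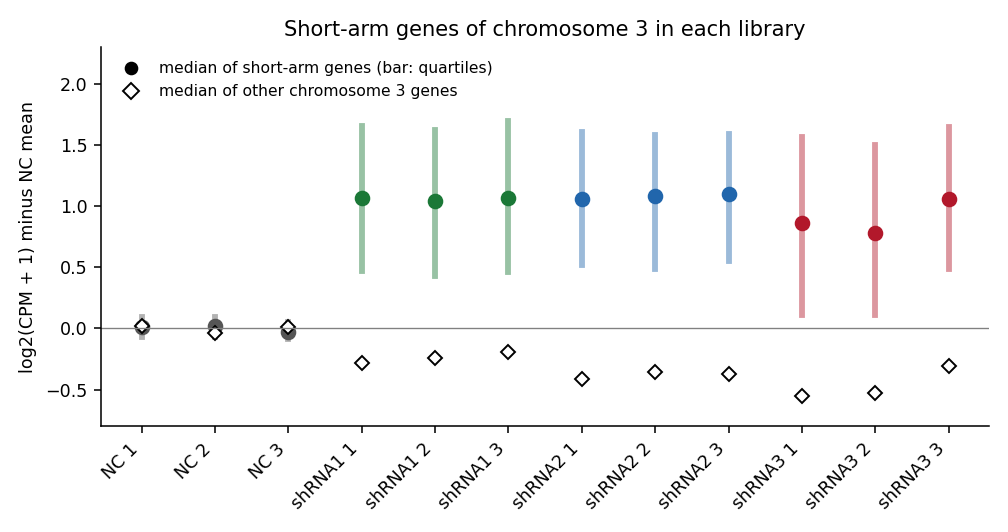
Difference from the NC mean in log2(CPM + 1), in each of the 12 libraries: filled dots are the median of the 278 short-arm genes, bars run from the lower to the upper quartile over genes, and open diamonds are the median of the 378 other chromosome 3 genes. The short-arm medians lie between 0.78 and 1.10 in the hairpin libraries and the diamonds between −0.55 and −0.19.

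The members' share of all protein-coding CPM (over genes of at least 50 mean counts) gave the same size of difference on a scale that high-level genes dominate. It was 0.962% ± 0.0139 in NC, 2.03% ± 0.0321 with shRNA1, 1.94% ± 0.0153 with shRNA2 and 1.89% ± 0.0709 with shRNA3 (mean ± SD, n = 3). These are ratios of 2.11, 2.02 and 1.97 to NC. The share of the other chromosome 3 genes was 3.33% ± 0.0907 in NC and lower with each hairpin, at 2.79% ± 0.0529, 2.57% ± 0.0503 and 2.40% ± 0.209.

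Most members took part in the difference, but its size varied among them. Of the 278 genes, 243, 247 and 232 had a mean above that of NC with shRNA1, shRNA2 and shRNA3. The 10th percentile over members was −0.19, −0.27 and −0.29, and the 90th was 2.38, 2.07 and 1.92. The distance between the quartiles was 1.14, 1.07 and 1.08 among the members. It was 1.4, 1.27 and 1.32 among 11192 genes of other chromosomes, whose medians were 0.12, 0.09 and −0.02. The 378 protein-coding genes on the rest of chromosome 3 had medians of −0.25, −0.37 and −0.49, below those of both other sets, and quartile distances of 1.53, 1.51 and 1.47.

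**Figure D2:**
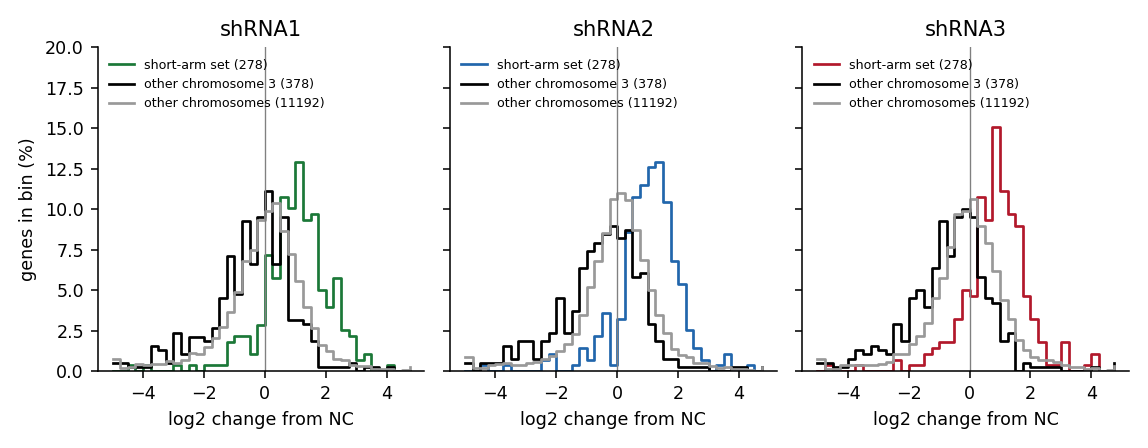
Change from NC in log2(CPM + 1) on the horizontal axis and percent of genes per bin of width 0.25 on the vertical axis, for the short-arm genes (coloured), the other chromosome 3 genes (black) and the genes of other chromosomes (grey), with values past the axis counted in the end bins. The coloured curves are displaced to the right, with medians of 1.04, 1.08 and 0.90, and their quartile distances are 1.14, 1.07 and 1.08.

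The scaling of the libraries moved all genes together, so the set is also given relative to all 11854 protein-coding genes. With TMM the median over all of them was 0.13, 0.10 and −0.01. With raw library totals it was 0.04, −0.03 and −0.34, and the members' medians were 0.96, 0.95 and 0.60. The difference between members and all genes was 0.91, 0.98 and 0.91 with TMM and 0.92, 0.98 and 0.94 with raw totals.

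Below the limit used in the rule, the difference from NC was spread along the arm and was smallest near that limit. The 27 genes in the outermost 10 Mb had medians of 1.16, 1.20 and 0.81 with shRNA1, shRNA2 and shRNA3. The 43 genes from 10 to 20 Mb had 1.17, 1.07 and 0.82, the 14 from 20 to 30 Mb 1.27, 1.14 and 0.90, and the 34 from 30 to 40 Mb 1.05, 1.06 and 0.98. The gene-dense window from 40 to 50 Mb, with 92 members, had 1.14, 1.22 and 1.05. The last 68 members, from 50 Mb on, had 0.78, 0.79 and 0.65.

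Within that last window the values changed at about 52 Mb, a position picked after the values were seen. The 239 members below 52 Mb had medians of 1.16, 1.18 and 0.99, and the 39 from 52 Mb on had 0.58, 0.55 and 0.14. No member started between 54 and 56 Mb. In shRNA3 the 39 genes had a median of 0.48 in library 3 alone and 0.10 in libraries 1 and 2, so their value depends on the library. Beyond the limit of the set the medians were near or below 0: 0.07, 0.10 and 0.09 for 5 genes up to 60 Mb, then −0.23, −0.33 and −0.29 for 14 genes up to 70 Mb. The 6 genes from 70 to 80 Mb had −0.80, −1.23 and −1.09. The limit lies within the arm, so the difference above NC did not cover the whole arm. Together the 31 genes from the limit to 90 Mb, counted above with the rest of chromosome 3, had −0.5, −0.36 and −0.72.

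**Figure D3:**
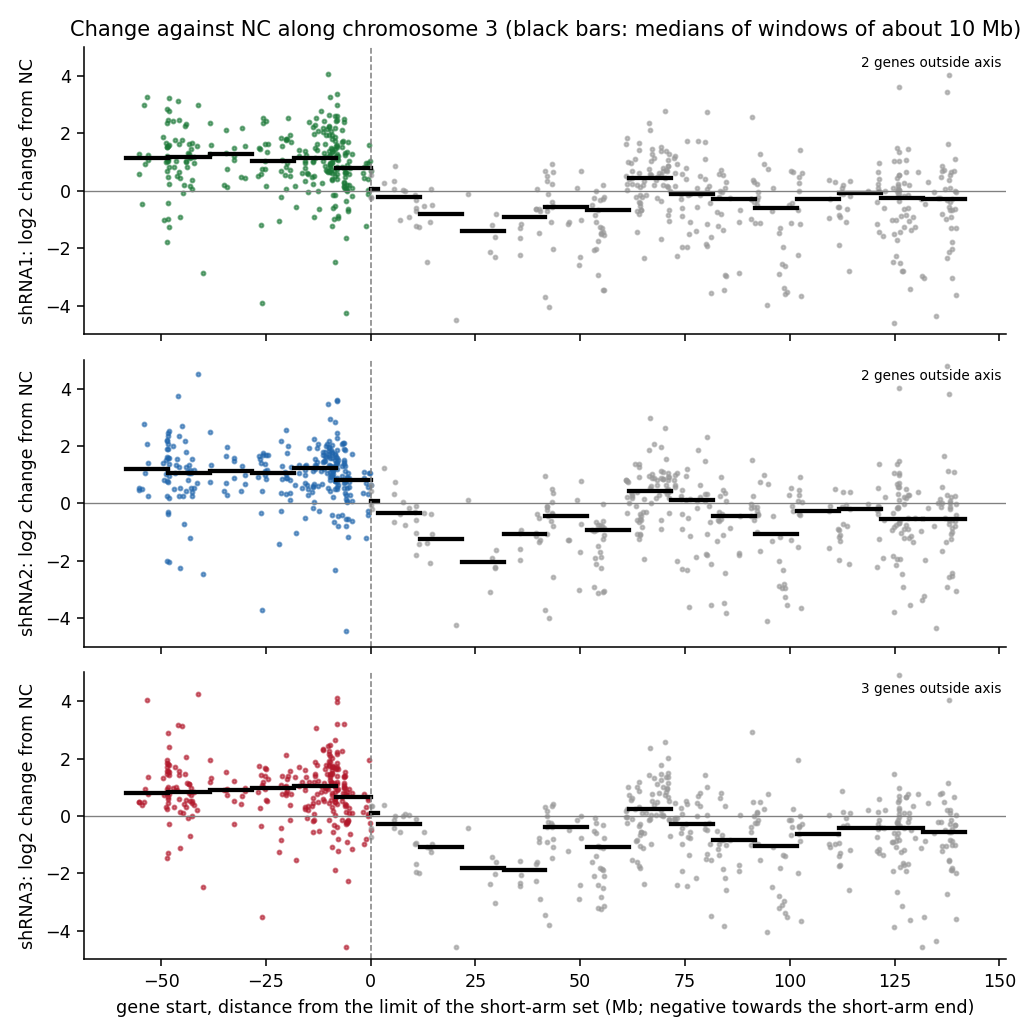
Change from NC in log2(CPM + 1) against the distance of each gene's start from the limit of the set in Mb, 1 panel per hairpin; coloured points are the 278 short-arm genes, grey points the 378 other chromosome 3 genes, and black bars the medians of windows of about 10 Mb with at least 5 genes. The bars of the short-arm set lie between 0.65 and 1.27, and those within 30 Mb beyond the limit at or below 0.10.

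At the limit of the set the values passed gradually from members to non-members. Just inside, DENND6A was at 18.2, 17.6 and 21.8 CPM in NC and at 16.2 to 24.7 CPM over the 9 hairpin libraries. SLMAP was at 45.3 to 53.6 CPM in NC and at 39.2 to 62.3 CPM with the hairpins. For both genes the ranges of shRNA1 and shRNA3 overlapped that of NC. The shRNA2 libraries were all above NC for DENND6A, at 23.5, 24.7 and 23.7 CPM, and all below it for SLMAP, at 39.2, 44.7 and 40.4 CPM. ABHD6, a lipase gene, was higher in 7 of the 9 hairpin libraries, at 10.6 to 21.1 against 6.14 to 8.91 CPM in NC, but stood at 3.56 and 2.77 CPM in shRNA3 libraries 1 and 2. The last member, the RNase P subunit gene RPP14, had the same split, with 2.67 and 3.35 CPM in those 2 libraries, 11.2 to 14.4 in the other 7 and 7.31 to 8.47 in NC. Its neighbour HTD2, which overlaps it and is the first gene outside, was at 4.09 to 5.07 CPM in NC, at 7.17 to 9.50 with shRNA1, at 5.76 to 7.08 with shRNA2 and at 2.08, 1.17 and 5.07 with shRNA3, so that 6 of 9 hairpin libraries lay above NC. PXK and PDHB, the next genes outside, were at 13.6 to 15.3 and 31.0 to 32.9 CPM in NC and at 10.5 to 16.4 and 19.3 to 37.0 CPM with the hairpins. KCTD6 was at 2.42 to 4.14 CPM in NC and 3.26 to 7.30 with the hairpins, and CFAP20DC at 3.23 to 4.92 and 2.99 to 7 CPM.

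Other regions also lay above NC. Windows of 10 Mb with at least 20 protein-coding genes were compared. Of the 213 without members, 12 had a median of at least 0.5 with all 3 hairpins, and all 5 with members did. At a median of at least 0.8 there were 2 windows outside the arm, both on chromosome 4. The one from 120 Mb had 0.93, 1.05 and 0.99, and the one at the start of that chromosome 0.95, 0.94 and 0.86. The part of the short arm below the limit was thus among the highest regions of the genome and did not stand alone.

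Counted gene by gene, 215 members passed edgeR's quasi-likelihood test at an adjusted p under 0.05 between shRNA1 and NC, when 57.4% of all 17532 tested genes did. Of them 196 were higher and 19 lower, against 26.8% and 30.6% of all tested genes. With shRNA2 203 members passed (53.0% of all tested genes), 187 higher (24.6%) and 16 lower (28.4%). With shRNA3 196 passed (53.9%), 183 higher (26.4%) and 13 lower (27.6%). The rule used these contrasts, so nothing is read from the counts. In 161 members all 9 hairpin libraries lay above all 3 NC libraries, where 22.9% of all protein-coding genes did so. In 14 members all 9 lay below, where 21.5% of all protein-coding genes did so.

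The tumour suppressor list held 20 genes of the arm, of which 17 were members. RARB, DLEC1 and ZMYND10 were under the count minimum. The medians of the 17 were 1.28, 1.4 and 1.44, beside 1.04, 1.08 and 0.90 over all members. All 9 hairpin libraries lay above NC in 11 of the 17 and below it in none. For this list and those below, the shares above are 57.9% of all members and 22.9% of all protein-coding genes. The shares below are 5.04% and 21.5%. Nothing particular to a list is read from such counts.

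The semaphorin genes lay farthest above NC in the list. SEMA3B (chr3:50267558-50277546, plus strand), a secreted guidance factor that restrains tumour growth, was at 20.6, 17.1 and 17.5 CPM in NC. It was at 236, 210 and 162 CPM with shRNA1, at 242, 219 and 240 with shRNA2 and at 396, 399 and 233 with shRNA3, which are changes of 3.38, 3.6 and 4.11 (SE 0.18, 0.09 and 0.27). SEMA3F, a ligand of neuropilin 2, was at 13.0, 13.1 and 13.2 CPM in NC, then 130, 113 and 93.9, then 166, 159 and 170, then 314, 303 and 110 CPM. For both genes the lowest hairpin library lay far above the highest NC library. RASSF1, which links Ras-type signals to the Hippo pathway and microtubules, was at 17.1, 13.3 and 15.6 CPM in NC and at 41.4 to 53.5 CPM in 7 hairpin libraries. The shRNA3 libraries 1 and 2 were beyond that range, at 102 and 99.2 CPM. HYAL2, a hyaluronidase gene, had the same shape, with 27 to 28.1 CPM in NC, 59.7 to 76.1 in 7 hairpin libraries and 128 and 119 in the other 2.

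The RNA-binding genes RBM5 and RBM6, which regulate splicing, both lay above NC. RBM6 was at 14, 18.2 and 15.5 CPM in NC, at 109, 96.6 and 69.0 with shRNA1, and at 46.9 to 62.0 with the other hairpins. RBM5 was at 17.1 to 19.4 CPM in NC and at 44.9 to 67.9 CPM in all hairpin libraries. LIMD1, a scaffold protein gene, differed from NC by 1.41, 1.45 and 1.77 and TUSC2 by 0.82, 0.90 and 0.90. VHL was at 49.8, 52.4 and 53.2 CPM in NC and at 84.5 to 159 CPM with the hairpins, or 0.82, 0.96 and 1.44. These 5 genes had no hairpin library within the NC range. CTDSPL, a phosphatase gene, had 1 of 9 hairpin libraries within it, at 22.4 CPM against 18.5 to 22.5 in NC. NPRL2, a subunit of the GATOR1 complex that restrains mTORC1, was at 12.7 to 14.6 CPM in NC and 13.8 to 25 with the hairpins, an overlap of 1 library.

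The last 2 genes of the list by position were BAP1 and PBRM1. BAP1, a nuclear deubiquitinase, was at 63.9, 61.5 and 52.1 CPM in NC and at 57.1 to 74.8 CPM in the hairpin libraries. Its changes were 0.09, 0.28 and 0.14 (SE 0.11, 0.09 and 0.10). With shRNA1 and shRNA3 it overlapped NC, while the shRNA2 libraries, at 70.1, 71.3 and 74.8 CPM, were all above NC. PBRM1, a subunit of the PBAF remodelling complex, was at 16.1 to 17.6 CPM in NC and at 27.9 to 43.8 CPM in 7 hairpin libraries, but at 11.3 and 8.31 CPM in shRNA3 libraries 1 and 2. Of the 2 genes only BAP1 overlapped NC with shRNA1, and neither did with shRNA2. PBRM1 shared its split within shRNA3 with XPC and SETD2.

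**Figure D4:**
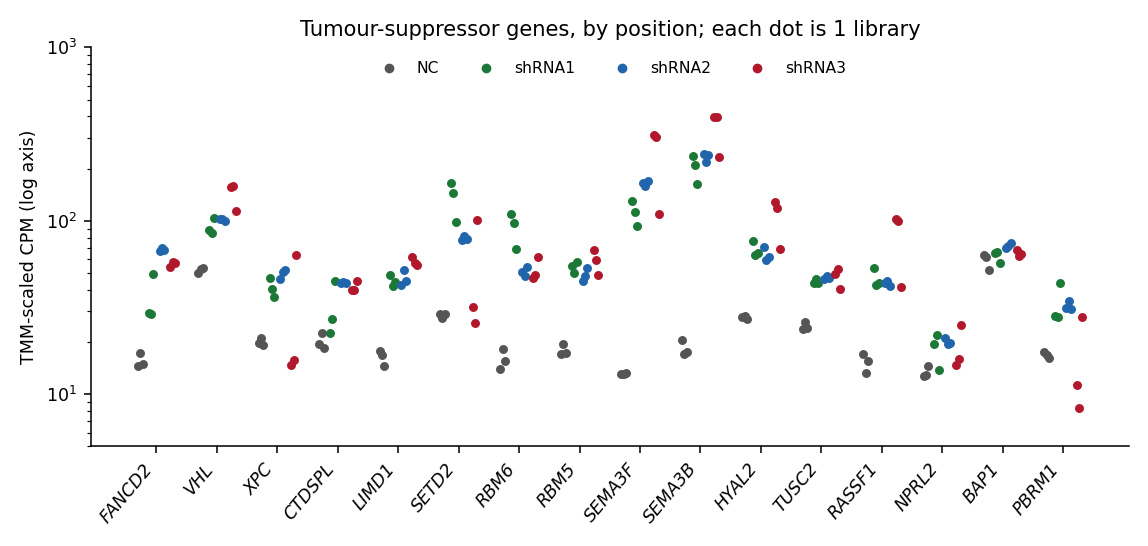
TMM-scaled CPM on a log axis for 16 of the 17 tumour suppressor genes that were members, in order of position from the chromosome end, each dot 1 library (3 per group). SEMA3F and SEMA3B show the widest gap to NC, BAP1 overlaps with NC, and XPC, SETD2 and PBRM1 have 2 shRNA3 libraries apart from the third.

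DNA repair and chromatin genes gave both uniform and split patterns. All 12 genes of the repair list were members, with medians of 1.45, 1.45 and 1.07, and 8 had all 9 hairpin libraries above NC. FANCD2, a core protein of the Fanconi anaemia pathway, was at 14.6, 17.2 and 14.9 CPM in NC, 29.4, 28.9 and 49.3 with shRNA1, 67.4, 69.8 and 68.2 with shRNA2, and 54.4, 58.1 and 57.4 with shRNA3. XPC, the damage sensor of nucleotide excision repair, was at 19.1 to 21.0 CPM in NC, at 36.5 to 63.3 in 7 hairpin libraries and at 14.7 and 15.7 in shRNA3 libraries 1 and 2. The topoisomerase gene TOP2B was at 61.8 to 64.4 CPM in NC and at 110 to 190 CPM in all hairpin libraries.

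All 14 genes of the chromatin list were members, with medians of 1.09, 0.97 and 0.54. All 9 hairpin libraries lay above NC for 6 of them and below for 1, SATB1. SMARCC1, a core subunit of SWI/SNF complexes, was at 57.3 to 62.2 CPM in NC and at 183 to 253 CPM with the hairpins. SETD5 was at 69.9 to 78.1 and 125 to 164 CPM, and TADA3, a subunit of histone acetyltransferase complexes, at 44.0 to 51.2 and 102 to 199 CPM. The groups did not overlap for these 3 genes. SETD2, the histone H3 lysine 36 trimethylase, was at 29.2, 27.6 and 29.2 CPM in NC, 166, 145 and 98.8 with shRNA1 and 77.3, 81.5 and 78.1 with shRNA2. In shRNA3 it was at 31.7 and 25.9 CPM in libraries 1 and 2 and at 101 in library 3.

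Genes of Wnt signalling and adhesion lay above NC in most cases. Of 15 listed, 11 were members, with medians of 1.20, 1.26 and 1.48, and 8 had all 9 hairpin libraries above NC. CTNNB1, which encodes beta-catenin, the effector of canonical Wnt signalling and a partner of cadherins, was at 223, 220 and 197 CPM in NC and at 378 to 502 CPM in the hairpin libraries. DAG1, the laminin receptor dystroglycan, was at 176 to 212 CPM in NC and 266 to 479 with the hairpins. LAMB2, a laminin chain gene described after its values were seen, was below NC in 7 of 9 hairpin libraries. It was at 123, 100 and 104 CPM in NC, 45.3, 43.3 and 50.2 with shRNA1, 82.3, 83.2 and 77.1 with shRNA2, and 190, 187 and 68.5 with shRNA3.

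Of the 19 signalling genes 16 were members, with medians of 1.13, 1.15 and 0.97. All 9 hairpin libraries were above NC for 10 and below for 2, IL17RD and CAMK1. OXSR1, a kinase of the oxidative and osmotic stress response, was at 62.2 to 73.1 CPM in NC, 190 to 271 with shRNA1 and 108 to 157 with the other hairpins. MST1R, the receptor tyrosine kinase RON, was at 17.4, 22.1 and 18.4 CPM in NC, 51.3, 57.3 and 102 with shRNA1, 148, 136 and 142 with shRNA2 and 138, 129 and 114 with shRNA3. In both genes every hairpin library was above every NC library.

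Metabolic genes had medians close to that of all members. The 17 metabolic and mitochondrial members, of 19 listed, had medians of 1.03, 1 and 0.81, and 13 had all 9 hairpin libraries above NC. IMPDH2, the rate-limiting enzyme of guanine nucleotide synthesis, was at 113, 117 and 110 CPM in NC and at 382 to 481 CPM with the hairpins, or 1.95, 1.76 and 2.03. TKT, the transketolase of the pentose phosphate pathway, was at 310 to 324 CPM in NC and slightly higher at 349 to 380 with shRNA1, or 0.19 (SE 0.04). It was at 512 to 541 CPM with shRNA2 and at 767, 693 and 414 with shRNA3. UQCRC1, a subunit of respiratory complex III, was at 178 to 192 CPM in NC and at 275 to 635 with the hairpins.

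The ubiquitin list had 12 members of 14 genes, with medians of 0.90, 1.05 and 0.95. All 9 hairpin libraries were above NC for 7 and below for 1, UBA7. USP19, a deubiquitinase, was at 52.8 to 57.5 CPM in NC and at 84.4 to 128 with the hairpins. The cell cycle and cytoskeleton list had 10 members of 11, with medians of 1.35, 1.33 and 1.18, and 8 had all 9 hairpin libraries above NC. RHOA, the small GTPase that drives stress fibres and contractility, was at 269, 244 and 272 CPM in NC. It was at 559 to 587 CPM in 7 hairpin libraries and at 1070 in each of shRNA3 libraries 1 and 2. MAP4, a microtubule-binding protein, was at 160 to 180 CPM in NC and 237 to 395 with the hairpins. ARPC4, a subunit of the actin-nucleating Arp2/3 complex, was at 37.5 to 43.8 and 143 to 236 CPM.

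Ranked by the hairpin that changed a gene least, the members farthest above NC were SEMA3B, PPARG, SEMA3F, TBC1D5, PFKFB4 and CDC25A. PPARG, TBC1D5 and PFKFB4 were at no more than 2.88 CPM in NC and met the count minimum largely through the hairpin libraries. Their place in this ranking is thus partly set by the rule. PPARG, a nuclear receptor of lipid metabolism and differentiation, was at 2.88, 2.22 and 1.57 CPM in NC and at 21.7 to 44.1 CPM in the hairpin libraries, or 3.14, 3.75 and 3.18. CDC25A (chr3:48157146-48188402, minus strand), the phosphatase that activates cyclin-dependent kinases, was at 4.80, 5.22 and 4.41 CPM in NC. It was at 114, 99.3 and 81.3 CPM with shRNA1, 65.5, 60.5 and 61.6 with shRNA2 and 21.7, 20.6 and 61.9 with shRNA3. The processed pseudogene SNRPFP4, which lies within CDC25A, went the other way, from 28.1, 25.9 and 24.0 CPM in NC to 0 in 8 hairpin libraries and 0.729 in the other. PFKFB4, a glycolytic regulator, was at 0.757 to 1.58 CPM in NC and 8.16 to 21.2 with the hairpins. TBC1D5, a regulator of endosome traffic, was at 1.92 to 2.58 CPM in NC, 17.6, 16.9 and 49.4 with shRNA1, 69.7 to 75.6 with shRNA2 and 87.4, 88.0 and 28.3 with shRNA3.

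Farthest below NC by the same ranking were NT5DC2, CMTM7, SATB1, UBA7, CAMK1 and STAC, members that ran against the set. NT5DC2 (chr3:52524385-52535054, minus strand), named for its likeness to nucleotidases, was at 25.7, 30.3 and 24.4 CPM in NC and at no more than 0.696 CPM in any hairpin library, or −4.26, −4.45 and −4.56. CMTM7 (chr3:32391671-32483067, plus strand), a membrane protein gene with reported tumour suppressor activity, was at 14, 15.6 and 19.2 CPM in NC and at 0.0497 to 1.04 CPM with the hairpins, or −3.91, −3.72 and −3.52. Both were therefore nearly lost in all 9 hairpin libraries. SATB1, a genome organiser, was at 16.8, 14.5 and 14.9 CPM in NC and at 1.04 to 2.52 CPM with the hairpins. It overlaps TBC1D5 on the same strand and SATB1-AS1 in the annotation, and how reads of overlapping genes were assigned is not given in the sources used here. Nor is the use of strand, so reads of genes that overlap on opposite strands cannot be told apart. UBA7, the activating enzyme for the ubiquitin-like protein ISG15, was at 13.2 to 15.1 CPM in NC and 0.568 to 4.52 with the hairpins. CAMK1, a calmodulin-dependent kinase, was at 7.07 to 7.53 and 0.795 to 3.72 CPM, and STAC, an adaptor of calcium channels, at 9.99 to 10.7 and 2.73 to 4.68 CPM.

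The sequences before the start sites of CDC25A and SEMA3F, which were higher with the hairpins, and of CMTM7 and NT5DC2, which were lower, are shown as examples from the 6 members farthest above and the 6 farthest below NC. Each run is the 250 bases before the RefSeq start on GRCh38.p14, written 5′ to 3′ on the gene's strand, with GC boxes (GGGCGG, or CCGCCC where the box is on the other strand) in capitals. The regions are chr3:48188418-48188667 (minus) for CDC25A, chr3:50154808-50155057 (plus) for SEMA3F, chr3:32391603-32391852 (plus) for CMTM7 and chr3:52535028-52535277 (minus) for NT5DC2.
CDC25A: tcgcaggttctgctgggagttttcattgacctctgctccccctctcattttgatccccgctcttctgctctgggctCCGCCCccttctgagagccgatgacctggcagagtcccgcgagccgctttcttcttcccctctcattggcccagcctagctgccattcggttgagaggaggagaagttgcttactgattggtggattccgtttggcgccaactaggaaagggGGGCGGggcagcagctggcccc
SEMA3F: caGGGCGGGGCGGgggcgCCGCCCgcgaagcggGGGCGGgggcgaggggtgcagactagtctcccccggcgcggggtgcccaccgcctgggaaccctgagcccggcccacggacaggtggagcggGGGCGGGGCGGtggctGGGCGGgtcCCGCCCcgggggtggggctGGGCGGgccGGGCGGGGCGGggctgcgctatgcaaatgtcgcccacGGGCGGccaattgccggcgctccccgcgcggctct
CMTM7: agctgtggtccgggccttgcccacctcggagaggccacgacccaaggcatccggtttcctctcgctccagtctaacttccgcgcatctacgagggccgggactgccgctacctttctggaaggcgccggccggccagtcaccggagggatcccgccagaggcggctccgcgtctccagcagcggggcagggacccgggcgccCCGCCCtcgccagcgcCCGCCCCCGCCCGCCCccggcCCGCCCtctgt
NT5DC2: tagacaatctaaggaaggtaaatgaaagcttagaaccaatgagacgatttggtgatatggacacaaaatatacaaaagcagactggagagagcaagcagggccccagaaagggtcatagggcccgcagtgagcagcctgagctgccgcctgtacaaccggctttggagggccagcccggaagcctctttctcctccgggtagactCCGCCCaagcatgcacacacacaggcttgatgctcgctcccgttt
A GC box is the sequence that SP1-type factors bind. SEMA3F held 12 matches, some overlapping, CMTM7 5, CDC25A 2 and NT5DC2 1, so both the higher and the lower pair hold a gene rich in boxes and a gene with few. CpG dinucleotides numbered 34, 29, 11 and 9 in the same order.

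Promoters from 250 bases before to 50 after the start were matched by symbol for 245 of the 278 members. A GC box on either strand was in 73.5% of them, in 72.3% of the 9563 matched protein-coding genes at the same count minimum and in 44.6% of all 27305 promoters of the RefSeq table. Their median GC content was 66.7%, against 65.7% and 58.3%, and the median number of CpG dinucleotides was 28, against 27 and 14. By these measures the members' promoters lay close to those of other expressed genes. Among the 144 matched members with all hairpin libraries above NC 74.3% held a GC box, and among the 12 with all below 11 did, a number too small to compare. A match describes the letters and shows no binding.

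The comparisons between hairpins ask where short-arm genes depended on which hairpin was used. Higher and lower values nearly balanced over the members. The median log2 difference was 0.05 for shRNA1 minus shRNA2, 0.11 for shRNA1 minus shRNA3 and 0.08 for shRNA2 minus shRNA3. The median absolute difference was 0.37, 0.56 and 0.45 among members, and 0.37, 0.57 and 0.44 among protein-coding genes at the same count minimum. Between shRNA1 and shRNA2, 42 members passed edgeR's quasi-likelihood test at an adjusted p under 0.05, which is 15.1% of members beside 12.3% of all tested genes. Of these, 17 were higher with shRNA1 (5.78% of all tested genes) and 25 lower (6.53%). Between shRNA1 and shRNA3, 81 passed (29.1% beside 30%), 34 higher with shRNA1 (11.9% of all tested genes) and 47 lower (18.1%). Between shRNA2 and shRNA3, 19 passed (6.83% beside 8.34%), 3 higher with shRNA2 (1.91% of all tested genes) and 16 lower (6.43%). These shares are near the background, so nothing particular to the arm is read from them.

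The counts between hairpins depended on single libraries, and so did the counts over all genes. With all libraries 5258 genes passed for shRNA1 against shRNA3 and 1462 for shRNA2 against shRNA3. Without shRNA3 library 3 these were 11573 and 10800. Of the 42, 81 and 19 members, 11, 18 and 0 passed in each of the 6 fits that left out 1 library of the pair. For shRNA1 against shRNA2 the count was 11 without shRNA1 library 2, 15 without shRNA1 library 1, and 12, 14 and 13 without shRNA2 library 1, 2 or 3. For shRNA1 against shRNA3 it was 32, 23, 23 and 25 without shRNA1 library 1 or 2 or shRNA3 library 1 or 2, and 210 without shRNA3 library 3. For shRNA2 against shRNA3 it was 0 without any 1 of the other 5 libraries of the pair (edgeR; 44 to 61 members at an unadjusted p under 0.05) and 196 without shRNA3 library 3. Without both shRNA3 libraries 1 and 2 it was 33 for shRNA1 against shRNA3 and 5 for shRNA2 against shRNA3.

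VILL and SRGAP3 separated shRNA1 from both other hairpins whichever library was left out. VILL, a villin-like gene of the gelsolin family of actin-binding proteins, was at 1.31, 1.13 and 1.12 CPM in NC and at 0.895, 1.50 and 1.55 CPM with shRNA1. It was at 13.5, 10.1 and 12 CPM with shRNA2 and at 8.97, 9.40 and 7.35 with shRNA3, so shRNA1 overlapped NC and the others did not. Its mean of 97.8 counts came mostly from the shRNA2 and shRNA3 libraries, so its membership is not independent of this difference. The log2 fold change of VILL was −3.16 for shRNA1 against shRNA2 (SE 0.27, adjusted p = 0.000229, edgeR) and −2.70 against shRNA3 (SE 0.27, adjusted p = 0.00152, edgeR). SRGAP3, a GTPase-activating protein, was at 9.74, 8.42 and 9.33 CPM in NC, 4.88, 3.54 and 3.72 with shRNA1, 15.8, 18.0 and 16.6 with shRNA2 and 19.4, 22.2 and 9.14 with shRNA3. The log2 fold change was −2.05 for shRNA1 against shRNA2 (SE 0.30, adjusted p = 0.00304, edgeR) and −2.06 against shRNA3 (SE 0.30, adjusted p = 0.00292, edgeR). The direction against NC thus differed between shRNA1 and shRNA2 for this gene.

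CSRNP1 and TMEM40 also held in all 6 fits between shRNA1 and shRNA2. CSRNP1, a nuclear protein induced by AXIN1, was at 15.1, 10.4 and 12.7 CPM in NC, 63, 52.4 and 40.6 with shRNA1, 17.2, 15.2 and 17.7 with shRNA2, and 51.8, 51.5 and 22.2 with shRNA3. The shRNA1 to shRNA2 log2 fold change was 1.64 (SE 0.30, adjusted p = 0.00782, edgeR). TMEM40, a transmembrane protein gene, was lower than NC in all hairpin libraries, at 68.4 to 78.4 CPM in NC, 32.2 to 44.5 with shRNA1, 13.4 to 15.7 with shRNA2 and 26.9 to 37.7 with shRNA3. Its shRNA1 to shRNA2 log2 fold change was 1.41 (SE 0.17, adjusted p = 0.00163, edgeR). NICN1 and SH3BP5, with log2 fold changes of −1.71 and 1.51 (adjusted p = 0.0491 and 0.0131, edgeR), passed in only 1 of the 6 fits.

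NAA80, the acetyltransferase that modifies the actin N-terminus, differed between shRNA1 and shRNA3 in all 6 fits. It was at 8.68, 7.93 and 6.19 CPM in NC, 16.6, 16.6 and 19.1 with shRNA1, 31.7, 29.4 and 29.4 with shRNA2 and 127, 118 and 30.2 with shRNA3. Its log2 fold change was −2.40 for shRNA1 against shRNA3 (SE 0.41, adjusted p = 0.00474, edgeR), and it passed without shRNA3 libraries 1 and 2 as well (adjusted p = 0.0169, edgeR). SFMBT1, KLHL18 and ZNF35, higher with shRNA1 by 1.56, 1.74 and 2.19, had adjusted p-values of 0.0415, 0.0145 and 0.0355 (edgeR). Without shRNA3 libraries 1 and 2 these were 0.123, 0.0553 and 0.0986.

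Of the tumour suppressor list, 2, 9 and 1 of 17 members passed in the 3 pairs, beside 12.3%, 30% and 8.34% of all tested genes. None of the 9 passed without shRNA3 libraries 1 and 2 (lowest adjusted p = 0.096, edgeR). FANCD2 was lower with shRNA1 than with shRNA2 by 0.93 (log2 fold change −0.93, SE 0.19, adjusted p = 0.0126, edgeR) and RBM6 was higher by 0.84 (SE 0.19, adjusted p = 0.0163, edgeR), each in 1 of 6 fits. SEMA3F had a log2 fold change of −1.11 between shRNA1 and shRNA3 (adjusted p = 0.022, edgeR) and SETD2 of 1.37 (adjusted p = 0.0309, edgeR). SEMA3F passed in 1 and SETD2 in 2 of 6 fits. ACY1, an aminoacylase gene named after its values were seen, was at 15.9 to 20.2 CPM in NC, 17.1 to 22.6 with shRNA1, 51.0 to 54.4 with shRNA2 and 46.7 to 53.4 with shRNA3. Its log2 fold change for shRNA1 was −1.37 against shRNA2 (adjusted p = 0.000822, edgeR) and −1.32 against shRNA3 (adjusted p = 0.00152, edgeR), in all 6 fits of each.

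**Figure D5:**
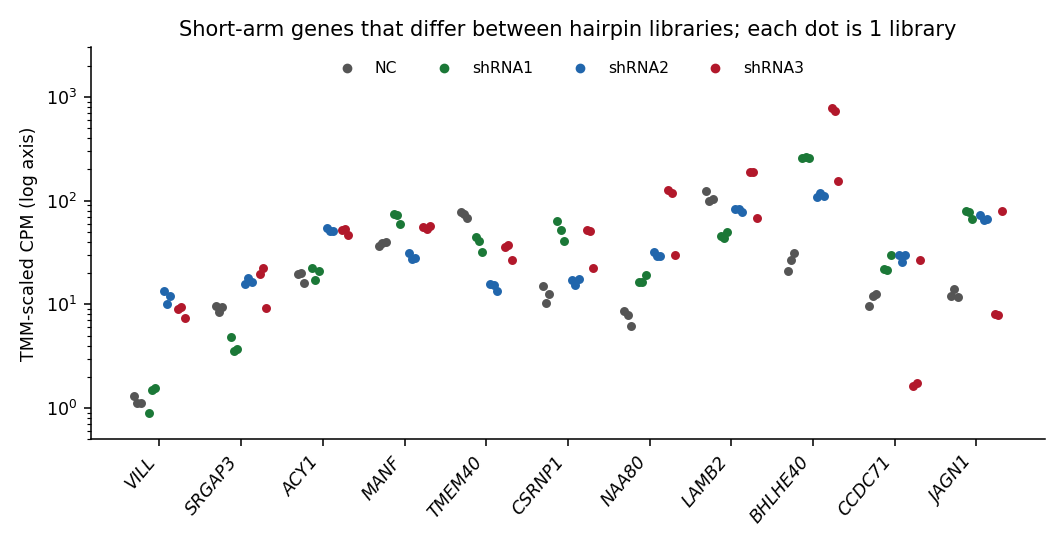
TMM-scaled CPM on a log axis for 11 short-arm genes, each dot 1 library (3 per group); the first 6 differ between shRNA1 and shRNA2, NAA80 and LAMB2 between shRNA1 and shRNA3, and the last 3 within shRNA3. For VILL the shRNA1 and NC libraries overlap at 0.895 to 1.55 CPM, and for CCDC71 and JAGN1 the low dots are shRNA3 libraries 1 and 2.

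Between shRNA2 and shRNA3 the 3 leading genes lower with shRNA2 followed shRNA3 libraries 1 and 2. BHLHE40, a circadian and hypoxia-responsive repressor, was at 108, 118 and 111 CPM with shRNA2 and at 787, 727 and 154 with shRNA3, against 21.1 to 31.3 in NC. IRAK2, a kinase of Toll-like and interleukin-1 receptor signalling, was at 4.45, 3.04 and 2.49 CPM with shRNA2 and at 22.3, 23.2 and 4.22 with shRNA3, against 14.8 to 18.4 in NC. TMEM158, a gene induced by Ras, was at 14.1 to 16.8 CPM with shRNA2 and at 78.2, 99.3 and 20 with shRNA3. Their log2 fold changes for shRNA2 against shRNA3 were −2.31, −2.31 and −2.12 (adjusted p = 0.0269, 0.0315 and 0.0286, edgeR). Without libraries 1 and 2 the adjusted p-values were 0.17, 0.594 and 0.312. THRB, WDR6 and USP19, the 3 members higher with shRNA2, had log2 fold changes of 1.18, 0.84 and 0.45 (adjusted p = 0.0305, 0.0482 and 0.0461, edgeR). THRB, a thyroid hormone receptor, was at 10.1, 14.5 and 10.5 CPM with shRNA2 and at 5.64, 4.66 and 5.17 in all 3 shRNA3 libraries, so it did not follow libraries 1 and 2. WDR6 was at 191 to 206 CPM with shRNA2 and at 98.0, 80.7 and 152 with shRNA3, and USP19 at 125 to 128 and at 89.0, 84.4 and 104. With 1 shRNA3 library left, the adjusted p-values of these 3 were 0.101, 0.395 and 0.297 (edgeR).

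Within shRNA3, library 3 differed from libraries 1 and 2 for many members in both directions. On the log2(CPM + 1) scale 64 members (23.0%) were higher by at least 1 in library 3 and 34 (12.2%) were lower by at least 1. Among all protein-coding genes these shares were 20.1% and 14%. Some members were below NC in libraries 1 and 2 while every other hairpin library was above it. CCDC71 was at 9.69 to 12.7 CPM in NC, 21.4 to 30.1 with shRNA1 and shRNA2, and 1.63, 1.75 and 26.6 with shRNA3. JAGN1, needed for neutrophil granule formation, was at 11.9 to 14.1 CPM in NC, 65.1 to 79.7 with shRNA1 and shRNA2, and 8.16, 7.94 and 78.7 with shRNA3. TASOR, a subunit of the HUSH silencing complex, had 25.6 to 28.5, 43.7 to 65.1, and 7.05, 6.05 and 49.4 CPM, and ATRIP, the partner of the ATR kinase, 5.88 to 7.98, 26.3 to 31.9, and 2.89, 2.84 and 25.6 CPM. These 4 genes were picked for this split after their values were seen. Whether libraries 1 and 2 were prepared apart from library 3 is not given in the sources used here.

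The change from NC varied more with level than with length. By mean log2(CPM + 1) over the 12 libraries, a level to which the change itself contributes, the 70 lowest members had medians of 0.65, 0.70 and 0.41 and the 70 highest 1.22, 1.30 and 1.35. By exon length, the 70 shortest had 1.05, 0.99 and 0.83 and the 70 longest 0.96, 1 and 0.92. The 180 members that overlap a gene on the opposite strand had 1.12, 1.10 and 0.93, and the 98 without such an overlap 0.96, 1.04 and 0.84. Since 9 of the 12 libraries behind the count minimum carry a hairpin, the minimum favours genes that are high there. With a mean of at least 50 counts asked of the 3 NC libraries instead, the rule gave 269 genes, 256 of them members, with medians of 0.961, 0.955 and 0.814.

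The 32 protein-coding genes of 10 to 50 mean counts had medians of −0.43, −0.62 and −0.52. Their band was set on the same mean, mostly over hairpin libraries, so genes high with the hairpins tend to leave it. For that reason these medians cannot show whether weakly read genes of the arm shared the displacement. The members nearest the minimum were CAMK1, PLCL2 and C3orf18 at 55.5, 56.3 and 57.7 mean counts, and the nearest outside TMIE, C3orf62 and VIPR1 at 48.4, 48.2 and 47.2. PLCL2 was at 1.17 to 1.36 CPM in NC and at 0.437 to 6.30 with the hairpins, and VIPR1 was at 6.06 to 7.31 CPM in NC and 0.445 to 1.58. The 5 ribosomal protein genes of the arm (RPL32, RPSA, RPL14, RPL29 and RPL15) had medians of 0.95, 0.79 and 1.23, each with all 9 hairpin libraries above NC. The 16 genes of other types at the same count minimum had 0.92, 0.76 and 0.81. Among them the antisense RNA FGD5-AS1 was at 46.5 to 49.4 CPM in NC and at 64.5 to 172 CPM with the hairpins. GPX1, the glutathione peroxidase gene that GENCODE release 29 types as a polymorphic pseudogene, was at 111, 116 and 112 CPM in NC and at 463 to 639 CPM in 7 hairpin libraries and 1550 and 1570 in shRNA3 libraries 1 and 2.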

How the data were processed

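RNA-seq libraries of SCC-15 cells (4 groups of 3, grouped by sample title) were analysed from 1 table of 61044 gene IDs. The authors deposited 1 expected count per gene and library, and 13.8% of the values are not whole; per the submitters' processing notes, HISAT2, HTSeq 0.11.2 and GRCh38 were used, and the annotation, filters and use of strand are not given in the sources used here. Counts were rounded, scaled by TMM and filtered with edgeR's filterByExpr (minimum count 10, minimum total 15), leaving 17532 genes. Positions and gene types came from GENCODE release 29 (GRCh38) by Ensembl ID, and promoters from RefSeq (GRCh38.p14).

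Changes against NC are differences of mean log2(CPM + 1), with a pseudocount of 1 that understates changes of low genes, and their SE comes from the libraries. Pairs of groups were tested two-sided with edgeR 4.0.16 (R 4.3.3), quasi-likelihood, all 12 libraries in 1 model (8 residual degrees of freedom, common biological coefficient of variation 0.289), Benjamini-Hochberg over all tested genes, threshold 0.05. The script was tested on simulated data. The SE of a pair's fold change is its size over the square root of F.

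The members and gene lists were chosen with earlier results of these data known. Named were the members nearest the limit, the tumour suppressor list, the 3 members of highest mean CPM in each other list and the 5 of highest mean CPM, the 6 farthest above and below NC, the 3 leading in each direction per hairpin pair, and those nearest the count minimum; others are said to be chosen after their values were seen or stand in a list. Alternatives were DESeq2 1.42.0, other scalings, filters, pseudocounts and count minimums, a log2 threshold, only 2 groups, a replicate block, and libraries left out. Some genes that the naming rule picks are not reported here.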

Additional observations from a re-analysis of the deposited data

Results flagged for a closer look

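Flagged were 4 short-arm genes with 2 hairpins on opposite sides of NC. The 2 hairpins also differed from each other by edgeR's quasi-likelihood test, and a further condition given below was met. Other members with mean changes of opposite sign passed between hairpins without being flagged. NICN1, at −0.613 with shRNA1 and 1.034 with shRNA2, is an example. In SRGAP3 and MANF each of the 2 hairpins also passed the test against NC. In SUMF1 and ARF4 they did not both pass it, but no library of either hairpin overlapped NC. SRGAP3, a GTPase-activating protein, was below NC with shRNA1 (4.04 ± 0.727 against 9.17 ± 0.677 CPM, mean ± SD, n = 3) and above it with shRNA2 (16.8 ± 1.10). Its log2 fold change was −2.05 for shRNA1 against shRNA2 and −2.06 for shRNA1 against shRNA3, where the mean was 16.9 ± 6.85 CPM with 1 library at the NC level. It overlaps THUMPD3 and several antisense transcripts. MANF, a neurotrophic factor of the endoplasmic reticulum named after its values were seen, was above NC with shRNA1 (69.1 ± 8.31 against 38.6 ± 1.55 CPM) and shRNA3 (55.3 ± 1.42) and below it with shRNA2 (29 ± 2.19). Its log2 fold change was 1.25 for shRNA1 against shRNA2 (adjusted p = 0.000512, edgeR), in all 6 fits that left out a library, and −0.93 for shRNA2 against shRNA3 (adjusted p = 0.0155, edgeR), in 1 of 6 fits. SUMF1, which activates sulfatases, was at 10.5 to 12.2 CPM with shRNA1, 14.9 to 18.1 in NC and 21.8 to 25.2 with shRNA2, a log2 fold change of −1.02 between the hairpins (adjusted p = 0.0278, edgeR), and passed in 1 of 6 fits that left out a library. ARF4, a small GTPase of the Golgi, was at 165 to 173 CPM with shRNA1, 110 to 138 in NC and 93.6 to 97 with shRNA2, a log2 fold change of 0.84 (adjusted p = 0.0342, edgeR), also in 1 of 6 fits. Both were named after their values were seen.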

How the results depend on the processing

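The members' median against NC was above 0 in each alternative run. With raw totals it was 0.961, 0.948 and 0.604 for shRNA1, shRNA2 and shRNA3, with DESeq2 size factors 1.038 for shRNA2, and with a pseudocount of 0.1 1.083 and 1.121 for shRNA1 and shRNA2. A mean of at least 10 counts (310 genes) gave 0.977 and 0.997 for these, at least 500 (156 genes) gave 1.2, 1.226 and 1.137 for all 3, and at least 50 over the NC libraries, chosen after seeing the data like the next value, 0.961 and 0.955. Without shRNA3 libraries 1 and 2 its median was 1.06. Leaving out 1 library gave 1.052 to 1.08, 1.041 to 1.109 and 0.821 to 1.009, and 189 to 204, 185 to 190 and 174 to 230 members called against NC.

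Counts between hairpins moved more, and the counts over all genes moved too. In the pair order given next, 2158, 5258 and 1462 of all genes passed in the main fits. With only the 2 groups compared 6251, 0 and 0 did, and with the DESeq2 Wald test 3464, 6749 and 3793. For shRNA1 against shRNA2, shRNA1 against shRNA3 and shRNA2 against shRNA3, leaving out 1 library gave 11 to 59, 23 to 210 and 0 to 196 members. With only the 2 groups compared they were 131, 0 and 0 (edgeR; 70 and 52 at an unadjusted p under 0.05 for the latter), with a log2 change of at least 1 also asked 18, 36 and 12, and with the DESeq2 Wald test 71, 123 and 58. Without shRNA3 libraries 1 and 2 they were 33 and 5 for its 2 pairs. The cause was not tested, except that fewer libraries or a stricter rule enter some of these fits. With the replicate number as a block the counts were 25, 78 and 5. The numbers did not pair the libraries: deviations of same-numbered libraries correlated by −0.0963 to 0.0968 over 18 pairs, and of others by −0.111 to 0.111 over 36. At these depths the low counts of FMOD and of weakly read members limit what can be compared.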
